A study of Mus musculus with 6 samples.

Results

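Genes for the machinery that moves proteins between membrane compartments were followed across 6 arrays of mouse neurosphere cultures: vesicle coats, their adaptors, the retromer and the Sec genes of the endoplasmic reticulum. Members were the gene probes whose single annotated symbol is a coatomer subunit (Cop), Sec13, Sec16, Sec22, Sec23, Sec24, Sec31, Sec61, Sec62 or Sec63, a subunit of adaptor complexes AP-1 to AP-4, Arf1 to Arf6, a sorting nexin (Snx) or a Vps gene. This gave 148 probes for 118 genes, out of 34967 gene probes and 18069 genes with a single symbol. The rule reads symbols and no intensity, but the set was proposed with earlier results of these arrays known. All differences between the groups are therefore given as a description of these arrays.

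Proteins made at the endoplasmic reticulum enter it through the Sec61 channel and leave it in vesicles coated by COPII, which is built from Sec23, Sec24, Sec13 and Sec31. COPI, the coatomer, coats vesicles that return from the Golgi, and it is recruited by the GTPase ARF1. AP complexes select cargo at the Golgi, endosomes and plasma membrane, several of them for clathrin coats. Retromer retrieves receptors from endosomes, with sorting nexins as partners, while HOPS, CORVET and GARP tether membranes and ESCRT sorts cargo into multivesicular bodies. In neural precursors these routes deliver and recycle growth factor receptors and adhesion molecules.

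Anti-miR-335 cultures (3 arrays) received a 2'-O-methyl oligonucleotide antisense to the microRNA miR-335 by transfection, and control cultures (3 arrays) a nonsense 2'-O-methyl oligonucleotide that the labels name for EGFP. Both groups were cortical neuroepithelium taken from the dorsal telencephalon at embryonic day 12.5 (C57BL/6 fetuses) and grew as neurospheres, floating clusters of precursor cells, in serum-free medium with 20 ng/ml bFGF, 20 ng/ml EGF, 0.15 ng/ml LIF, 0.85 U/ml heparin and 20 nM progesterone. The labels give the treatment time as 24 without a unit. They call the replicates independent without saying what was repeated, so the errors measure the spread between these samples, which may be technical. Because miR-335 itself was not analysed here, its block has no check in these data.

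Intensity is given as a multiple of the median of its array. A probe counted as above background when it exceeded the median of the negative control spots by 3 scaled median absolute deviations, a limit between 0.492 and 0.692. This limit was set per array, at 0.692, 0.563 and 0.492 in anti-miR-335 cultures and 0.656, 0.630 and 0.645 in control cultures. A dim intensity can therefore count as above background on 1 array and not on another. Of the 10 probes for neural precursor markers, 9 were above background on at least 3 arrays, Nes (the filament protein nestin) at 8.24, 9.50 and 8.36 in anti-miR-335 cultures and 9.84, 9.08 and 9.94 in control cultures. Ptprc, Itgam and Tyrobp of microglia, Flt1, Pecam1 and Cdh5 of endothelium and Col1a1, Col3a1 and Dcn of mesenchyme were above background on no array, but other markers of these cells were above it on some. Cx3cr1 of microglia was above background on all 3 anti-miR-335 arrays and 2 control arrays, Kdr of endothelium on 2 and 3, Tek of endothelium on 3 and 0, Pdgfrb of mesenchyme on 2 and 1, and Aif1 of microglia on 1 and 0. Control replicate 1 stood apart from the other controls: leaving it out changed the number of gene probes past an adjusted p of 0.05 by limma to 1100, against 0 over all arrays. Counts over the whole set are given with and without it, and class medians with their range when 1 array was left out. Named probes with a printed difference that moved by over 1.5 times or changed sign without it are listed near the end.

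The sequences of miR-335, at which the antisense oligonucleotide was directed, are shown first. Which mature strand it matches is not given here. Promoter stretches follow for those members that hold a motif known from secretory or lysosomal gene control. Both mature strands of miR-335 lie on the plus strand of chromosome 6 (GRCm38.p6, RefSeq), the 5p strand at chr6:30741314-30741336 and the 3p strand at chr6:30741354-30741375. Capitals mark the seed, bases 2 to 8.
mmu-miR-335-5p: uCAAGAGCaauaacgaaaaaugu
mmu-miR-335-3p: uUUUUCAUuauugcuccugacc

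RefSeq promoter windows of 300 bases (GRCm38.p6, 250 before to 50 after the start site) were matched for 92 of the 118 genes. The octamer TGACGTGG, read by the unfolded protein response factors ATF6 and XBP1, was searched on both strands and stood in the windows of 6 of 92 genes (6.52%), against 0.823% of 17492 protein-coding genes and 0.676% of all windows. The 6 were Arf1, Copb1, Copb2, Sec16b, Sec23a and Sec24d, all of the COPI, COPII and ARF groups. In Copb2 and Sec23a the octamer reaches past the annotated start and is not printed. A second window of Arf1 holds the same octamer as the first, there past the annotated start. The other 4 stretches follow, with the octamer or its reverse complement in capitals.
Arf1, chr11:59228199-59228286, minus strand: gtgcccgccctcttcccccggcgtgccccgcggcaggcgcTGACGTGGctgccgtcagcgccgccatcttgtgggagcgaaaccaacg
Copb1, chr7:114254681-114254748, minus strand: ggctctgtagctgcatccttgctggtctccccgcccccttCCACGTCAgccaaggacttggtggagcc
Sec16b, chr1:157506712-157506795, plus strand: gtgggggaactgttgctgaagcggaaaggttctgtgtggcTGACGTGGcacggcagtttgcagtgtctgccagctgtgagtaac
Sec24d, chr3:123267430-123267495, plus strand: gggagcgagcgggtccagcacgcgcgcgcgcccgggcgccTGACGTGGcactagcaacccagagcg

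The palindrome made of GTCAC and directly GTGAC, a form of the CLEAR element read by the lysosomal regulator TFEB, stood in windows of 3 of the 92 genes (3.26%), against 0.469% of protein-coding genes and 0.326% of all windows. All 3 were Vps genes: Vps16 and Vps33a of the HOPS and CORVET tethers, and Vps26a of retromer, which holds it in both of its windows. Capitals mark the palindrome, which contains the E-box CACGTG.
Vps16, chr2:130424260-130424319, plus strand: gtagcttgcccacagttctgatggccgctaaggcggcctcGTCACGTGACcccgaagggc
Vps33a, chr5:123573016-123573069, minus strand: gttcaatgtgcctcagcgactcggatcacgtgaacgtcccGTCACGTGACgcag
Vps26a, chr10:62486702-62486791, minus strand: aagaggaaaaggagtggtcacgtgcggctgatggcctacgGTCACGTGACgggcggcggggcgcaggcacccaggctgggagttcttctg
Vps26a, chr10:62486940-62487029, minus strand: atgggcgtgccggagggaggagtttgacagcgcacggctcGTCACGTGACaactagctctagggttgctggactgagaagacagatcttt

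These were 2 of 12 motifs searched on both strands. The ETS site CCGGAAGT stood in 13.04% of the members' genes against 5.69% of protein-coding genes (3.89% of all windows), YY1's AAGATGGCG in 4.35% against 2.14% (1.40%), and the E-box CACGTG in 11.96% against 8.91% (7.15%). TATAAA stood in 4.35% against 14.8% (13.6%), the AP-1 site TGACTCA in 6.52% against 5.40% (5.20%), and the cAMP response element TGACGTCA in 2.17% against 2.54% (1.79%). TCACNCCAC, a sterol regulatory element, stood in 2.17% against 1.41% (1.24%) and TCTCG directly followed by CGAGA in 2.17% against 0.755% (0.466%). The NRF1 site, GCGCA directly followed by TGCGC, was in none of the 92 against 1.47% (0.971%), and the ER stress response element, CCAAT and CCACG with 9 bases between them, in none against 0.166% (0.119%). A match describes letters in a window and is not a binding site, and the motifs overlap in part.

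Across the whole set, most probes lay slightly higher in anti-miR-335 cultures. Of 147 member probes with values in both groups, 105 (71.4%) had a positive log2 difference (anti-miR-335 minus control), with a median of 0.10; over all 34847 gene probes tested, 51.9% were positive and the median was 0.01. In these cultures fewer cells of a type and less RNA per cell cannot be told apart. By limma over all gene probes, 0 of the 147 passed an adjusted p of 0.05 (background 0.0%), their adjusted p lying between 0.450 and 0.996. At an unadjusted p under 0.05 there were 16 (background 9.07%), 16 higher (background 4.91%) and 0 lower (background 4.17%). Group values did not overlap for 24 of 146 complete member probes in the higher direction, 16.4% against a background of 7.46%, and for 1 in the lower direction, 0.685% against 7.25%.

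Because the set was proposed with this contrast known, nothing is read from these shares. Members were also above background more often than the array as a whole. Of the 146, 122 (83.6%) were above background on all 6 arrays, against 52.2% of all gene probes, and 11 of the 147 with values were above it on none. Among probes above background on all arrays, 75.4% of the members were positive against 55.6% of all such probes, with medians of 0.12 and 0.03. Probes with a single symbol, from which the members come, lay nearer to them: 56.8% of all such probes were positive with a median of 0.05, and 62.5% with a median of 0.06 among those above background on all arrays, where 11.8% were higher without overlap. Values not overlapping and higher then made up 17.2% of the members, with a background of 9.7%, and 1 member was lower without overlap (background 8.46%). After quantile normalization the members' median was 0.06, that of single-symbol probes 0.03 and that of all gene probes 0.01.

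**Figure D1:**
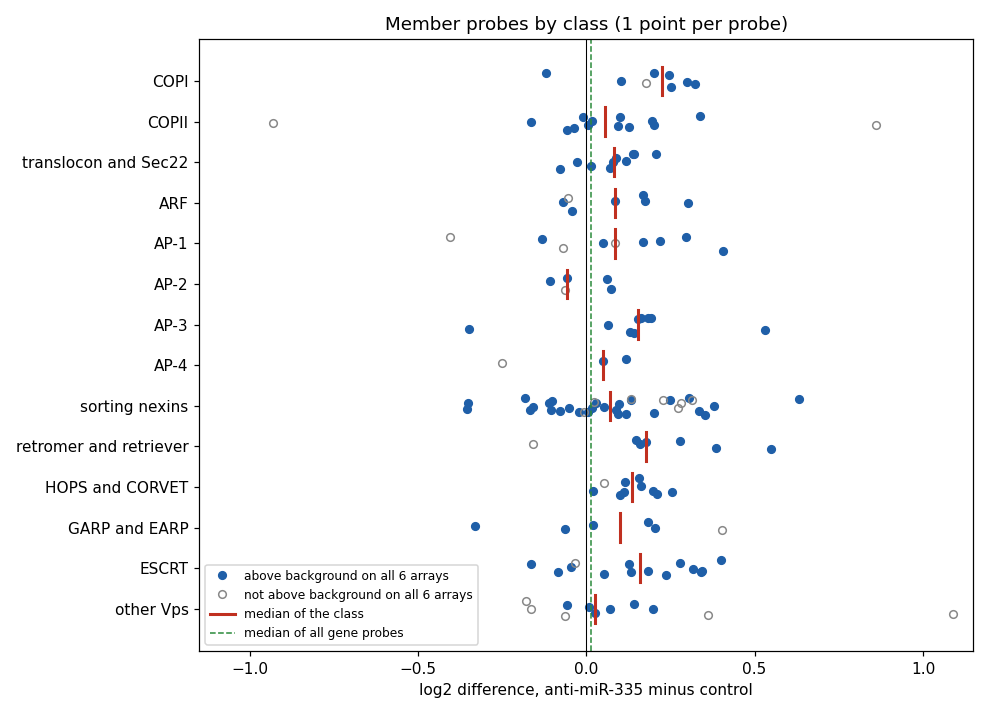
Log2 difference of each member probe (x axis, anti-miR-335 minus control), grouped by class down the page; filled points were above background on all 6 arrays, open ones were not. The class medians (red bars) run from -0.06 for AP-2 to 0.22 for COPI, beside a median of 0.01 for all gene probes (dashed line).

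The coatomer had the highest class median. Of 8 COPI genes, 7 were positive, with a median log2 difference of 0.22, which lay between 0.14 (without control replicate 3) and 0.31 (without control replicate 1) with 1 array left out. Values of 2 did not overlap; class counts of this kind stand against the 7.46% of all gene probes that were higher without overlap. Copg2, a gamma subunit that binds cargo and ARF1, had intensities of 13.3, 14.7 and 15.04 in anti-miR-335 cultures, against 13.1, 11.4 and 10.5 in control cultures, which is 0.30 ± 0.11 as a log2 difference with its SE. Copz1, a zeta subunit, lay at 19.8, 20.0 and 20.3 against 19.5, 16.1 and 15.4 (0.25 ± 0.11). For both genes every anti-miR-335 array was above every control, with control replicate 1 close below them.

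The other gamma subunit gene, Copg1, lay at 8.77, 10.2 and 11.1 in anti-miR-335 cultures and at 10.1, 7.53 and 6.63 in control cultures (0.32 ± 0.16). Here control replicate 1 lay inside the range of the anti-miR-335 arrays, so the groups overlap. Copb2, the beta-prime subunit, showed the same order with 41.3, 44.1 and 48.1 against 46.5, 35.7 and 31.3 (0.25 ± 0.15). Of the subunits with smaller differences, Copb1, the beta subunit, lay at 10.5, 13.1 and 12.9 against 11.6, 10.8 and 9.24 (0.20 ± 0.13). Copa, the alpha subunit, lay at 25.3, 29.6 and 32.6 against 32.6, 25.3 and 23.9 (0.10 ± 0.14), a difference within the spread of the arrays. Copz2, the other zeta subunit gene, lay near background with overlapping groups (0.18 ± 0.25). Cope, the epsilon subunit, was the single negative one, at 119, 133 and 106 against 118, 131 and 138 (-0.12 ± 0.13). Without control replicate 1, Copg1 was at 0.50 ± 0.12, and 6 of the 8 COPI genes were positive.

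**Figure D2:**
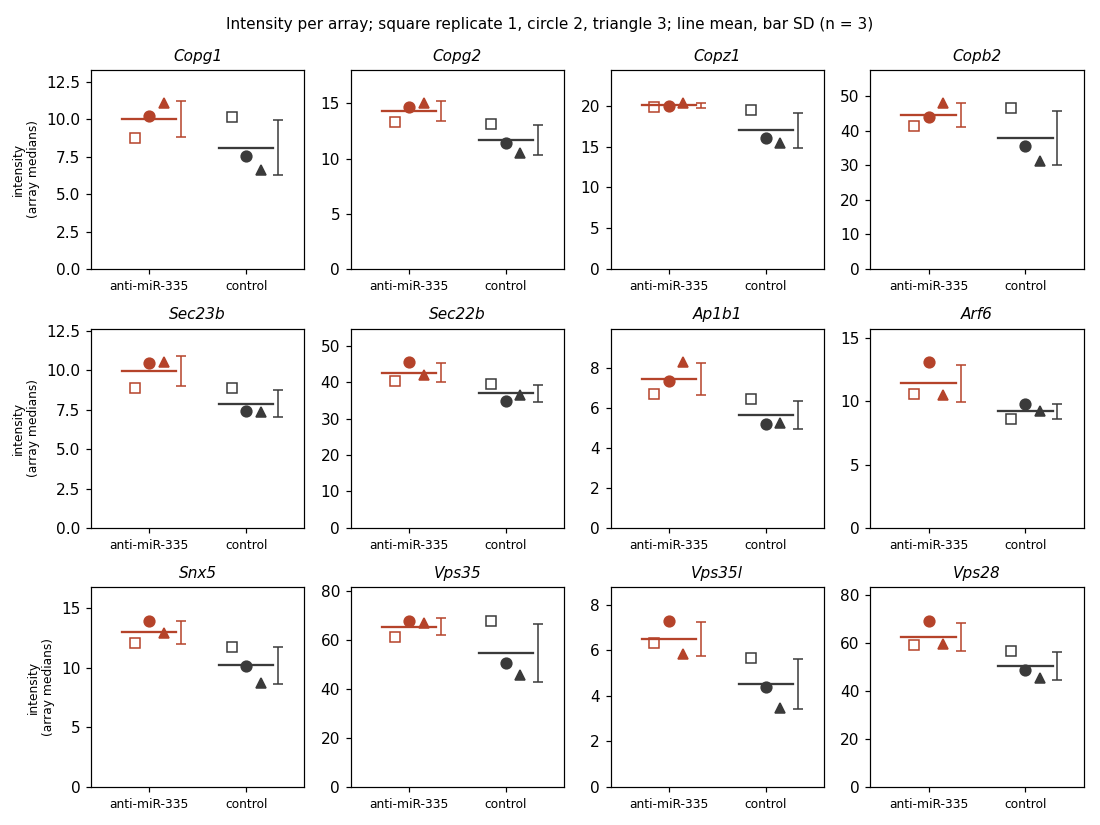
Intensity per array (y axis, array medians, from 0) for 12 named members, anti-miR-335 at the left of each panel and control at the right, with the mean as a line and the SD as a bar (n = 3). The open square marks replicate 1; in control cultures it lay above replicates 2 and 3 for 11 of the 12, Arf6 being the exception.

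COPII genes had a median of 0.06 over 14 probes of 12 genes, 9 of them positive. With 1 array left out the median lay between 0.04 (without control replicate 2) and 0.19 (without control replicate 1). Sec23b, an inner coat subunit that activates the GTPase SAR1, lay at 8.88, 10.5 and 10.6 in anti-miR-335 cultures against 8.87, 7.41 and 7.39 in control cultures (0.34 ± 0.12). The groups did not overlap, though replicate 1 of both groups gave nearly the same value. Its paralog Sec23a gave 0.604, 0.391 and 0.384 against 0.283, 0.328 and 0.0802, not above background on any array, so no difference is given for it. Sec13, of the outer cage, lay at 15.4, 18.6 and 17.7 against 15.5, 15.3 and 14.2 (0.20 ± 0.11), and its partner Sec31a at 13.3, 15.99 and 16.6 against 17.9, 13.3 and 12.1 (0.10 ± 0.15).

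Of the cargo-binding Sec24 paralogs, Sec24a, Sec24c and Sec24d had differences of about their SE or less. Sec24d had 3.04, 3.65 and 3.61 against 2.95, 3.42 and 3.27 in control cultures (0.09 ± 0.13), Sec24c a log2 difference of 0.13 ± 0.12 and Sec24a -0.04 ± 0.16. Sec24b was above background on only 1 array of each group, so its log2 difference of -0.93 ± 0.48, the lowest of all members, rests on dim values. Sec23ip, which encodes a partner of SEC23, gave 0.20 ± 0.16 on one probe, where values were 3.58, 3.70 and 4.28 against 4.23, 3.01 and 2.93, and -0.16 ± 0.13 on a second. Sec16a, which organises ER exit sites, was at -0.06 ± 0.11 and -0.01 ± 0.15 on its 2 probes.

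The translocation channel class, which also takes in the ER-Golgi SNAREs Sec22a and Sec22b, had 8 of 10 probes positive and a median of 0.08. That median lay between -2.2e-05 (without anti-miR-335 replicate 2) and 0.12 (without anti-miR-335 replicate 3) with 1 array left out, and all 10 were above background on every array. Sec22b lay at 40.4, 45.6 and 41.9 in anti-miR-335 cultures against 39.5, 34.7 and 36.5 in control cultures (0.21 ± 0.11), without overlap. The channel subunit Sec61g lay at 39.1, 45.2 and 46.3 against 39.9, 39.1 and 39.1 (0.14 ± 0.11). Sec61b gave 0.01 ± 0.14 on a probe at 62.9, 72.7 and 72.4 against 57.0, 75.2 and 74.9, and 0.07 ± 0.11 on a probe at 16.8, 19.8 and 16.1 against 16.4, 16.8 and 16.7. Sec61a2, an alpha subunit, lay at 10.1, 11.2 and 9.52 against 10.8, 9.10 and 8.66 (0.12 ± 0.12) on its probe of smaller p. Sec61a1, the main channel subunit, varied widely: 2.08, 3.25 and 0.525 against 0.916, 2.21 and 1.31 (0.14 ± 0.56), so these arrays do not resolve it.

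The ARF GTPases had a median of 0.09 (between 0.04, without control replicate 1, and 0.11 with 1 array left out), with 4 of 7 probes positive. Arf6, which acts at the plasma membrane in endocytosis and recycling, lay at 10.6, 13.1 and 10.5 in anti-miR-335 cultures against 8.64, 9.82 and 9.27 in control cultures (0.30 ± 0.12). Its groups did not overlap, and control replicate 1 was the lowest of its controls. Arf1, the ARF of the Golgi, lay at 90.7, 99.01 and 91.8 against 82.3, 91.2 and 91.8 (0.09 ± 0.11). Arf4 lay at 66.7, 83.6 and 75.9 against 79.6, 61.1 and 61.2 (0.17 ± 0.14), and Arf3 at 108, 125 and 119 against 112, 101 and 99.1 (0.17 ± 0.12), both with overlapping groups.

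AP-1, the adaptor that sorts between the Golgi and endosomes, had 6 of 9 probes positive with a median of 0.08 (between 0.04, without control replicate 3, and 0.26, without control replicate 1). Its largest difference was that of its beta subunit Ap1b1, at 6.70, 7.33 and 8.30 in anti-miR-335 cultures against 6.43, 5.20 and 5.24 in control cultures (0.41 ± 0.13). Ap1s1, the small sigma subunit, lay at 18.4, 24.3 and 20.0 against 16.1, 16.7 and 18.0 (0.29 ± 0.12). Groups did not overlap for either gene. The gamma subunit Ap1g1 lay at 1.51, 1.63 and 1.70 against 1.73, 1.42 and 1.08 (0.22 ± 0.20), and the mu subunit Ap1m1 at 24.8, 31.9 and 27.9 against 26.7, 23.4 and 24.9 (0.17 ± 0.12). Of the 3 negative probes, Ap1g2 was at -0.40 ± 0.40 and Ap1s3 at -0.13 ± 0.20, while Ap1m2 was above background on no array.

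AP-2, the clathrin adaptor of the plasma membrane, was the one class with a negative median, -0.06 over 5 probes of 4 genes, 2 of them positive. Ap2m1, the mu subunit, lay at 61.7, 80.3 and 67.0 in anti-miR-335 cultures against 73.6, 61.4 and 64.5 in control cultures (0.06 ± 0.13), and the sigma subunit Ap2s1 at 142, 158 and 135 against 133, 124 and 157 (0.07 ± 0.14). Ap2b1, the beta subunit, lay at 2.80, 3.81 and 3.71 against 3.47, 3.95 and 3.62 (-0.11 ± 0.15). All differences in this class lay within the spread of the arrays. With 1 array left out the class median lay between -0.06 and 0.03 and was positive in 4 of 6 cases, so its sign is not settled.

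AP-3, which sends cargo to lysosomes and synaptic vesicles, had 8 of 9 probes positive and a median of 0.15 (0.13 to 0.20 with 1 array left out). The neuronal beta subunit Ap3b2 lay at 1.52, 1.66 and 2.15 in anti-miR-335 cultures against 1.16, 1.22 and 1.28 in control cultures (0.53 ± 0.18), with no overlap and control replicate 1 the lowest. The ubiquitous beta subunit Ap3b1 lay at 5.60, 5.81 and 6.60 against 5.26, 5.16 and 5.76 (0.15 ± 0.11). Ap3m1, the mu subunit, was higher without overlap on both of its probes, at 15.04, 14.5 and 14.3 against 13.8, 12.96 and 12.4 (0.16 ± 0.10) and with a log2 difference of 0.18 ± 0.18. Ap3s2, a sigma subunit, gave the single lower member without overlap, at 0.981, 0.955 and 0.838 against 1.18, 1.35 and 1.01 (-0.35 ± 0.20). Its second probe was higher without overlap, at 1.99, 2.43 and 2.08 against 1.96, 1.93 and 1.99 (0.14 ± 0.14), so the direction of this gene is uncertain. AP-4 was measured by 3 probes, with Ap4b1 at 6.49, 6.79 and 7.504 against 8.12, 6.06 and 6.08 (0.05 ± 0.14) and Ap4s1 at 24.3, 30.5 and 24.4 against 20.2, 24.7 and 28.4 (0.12 ± 0.14). The AP-4 median of 0.05 lay between -0.02 (without control replicate 2) and 0.14 (without control replicate 3) with 1 array left out, negative in 3 of 6 cases, so its sign is not settled.

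The retromer class had the second highest median, 0.18 over 7 probes of 6 genes, 6 of them positive (0.15 to 0.26 with 1 array left out, the highest without control replicate 1). It includes Vps35l and Vps26c, which belong to the related retriever complex. Vps35l lay at 6.33, 7.31 and 5.84 in anti-miR-335 cultures against 5.66, 4.39 and 3.47 in control cultures (0.55 ± 0.17), and its groups did not overlap. Vps26c lay at 6.07, 5.94 and 5.52 against 5.32, 4.93 and 5.58 (0.15 ± 0.11).

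In retromer itself, the scaffold Vps35 lay at 61.3, 67.8 and 66.9 in anti-miR-335 cultures against 67.7, 50.4 and 45.6 in control cultures (0.28 ± 0.15). Vps26b, one of its arrestin-like subunits, lay at 13.2, 15.4 and 16.7 against 15.8, 11.0 and 8.77 (0.39 ± 0.19), and Vps29 at 84.5, 98.4 and 86.2 against 87.7, 74.2 and 79.2 (0.16 ± 0.12). In all of these control replicate 1 was the highest control and lay among the anti-miR-335 values. Vps26a lay at 19.6, 22.5 and 23.2 against 21.5, 20.0 and 16.4 (0.18 ± 0.13). A second Vps26a probe, at 0.763, 0.351 and 0.443 against 0.444, 0.627 and 0.591, was above background on 1 array.

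Sorting nexins, proteins with a lipid-binding PX domain, were measured by 35 probes of 30 genes, of which 34 probes were tested. They were mixed: 22 positive and 12 negative, with a median of 0.07 that lay between 0.0051 (without control replicate 3) and 0.11 (without control replicate 1) with 1 array left out. Snx14, which bridges the endoplasmic reticulum and lipid droplets, lay at 1.78, 2.06 and 1.84 in anti-miR-335 cultures against 1.58, 1.14 and 1.01 in control cultures (0.63 ± 0.20), and a second probe gave 0.38 ± 0.21. Snx5, a retromer-associated BAR domain protein, lay at 12.1, 14.0 and 12.9 against 11.8, 10.2 and 8.70 (0.35 ± 0.13). Snx12 lay at 15.6, 13.9 and 12.3 against 10.6, 11.3 and 11.8 (0.30 ± 0.11), and Snx10 at 9.87, 10.3 and 10.4 against 9.63, 7.93 and 6.90 (0.33 ± 0.13), where a second probe gave 0.09 ± 0.22. Groups did not overlap on these 4 first-named probes.

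Snx5 has close partners among the sorting nexins. Of these, Snx2 lay at 30.1, 30.4 and 27.7 in anti-miR-335 cultures against 32.8, 26.4 and 22.2 in control cultures (0.13 ± 0.14), and Snx6 at 21.7, 26.8 and 21.96 against 21.9, 28.5 and 28.9 (-0.17 ± 0.14). Snx1 has a probe, but its deposited values are empty on all 6 arrays. Snx13 lacks a value on anti-miR-335 replicate 2 and was fitted on the other 5 arrays (log2 difference -0.01 ± 0.17). Snx18 lay at 2.99, 2.77 and 3.38 against 5.26, 3.48 and 3.19 (-0.35 ± 0.19), with control replicate 1 the highest of all arrays. Snx31 was at -0.35 ± 0.21. Snx6, Snx13, Snx18 and Snx31 were singled out after their values were seen.

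The class of the tethers HOPS and CORVET, which fuse membranes with endosomes and lysosomes, had all 10 probes positive, with a median of 0.14 and none without overlap. Vps16, a core subunit, lay at 6.41, 7.05 and 7.83 in anti-miR-335 cultures against 6.95, 5.86 and 5.13 in control cultures (0.25 ± 0.14). Vps8 of CORVET lay at 18.0, 20.4 and 18.9 against 19.5, 15.5 and 14.8 (0.21 ± 0.12). Vps33b, counted in this class as a relative of the HOPS subunit Vps33a, lay at 5.09, 5.66 and 5.87 against 5.27, 4.54 and 4.68 (0.20 ± 0.12). Control replicate 1 was the highest control for 8 of the 10 probes and lay within the anti-miR-335 range for 7. Without that array 9 were positive, with a median of 0.20, the highest with 1 array left out (lowest 0.11), and 5 were higher without overlap (background 21.1%).

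GARP and EARP, tethers at the Golgi and at recycling endosomes, had 4 of 6 probes positive and a median of 0.10 that lay between 0.02 (without control replicate 2) and 0.20 (without control replicate 1) with 1 array left out. Vps53, a subunit of both, lay at 12.5, 15.2 and 15.5 in anti-miR-335 cultures against 15.1, 11.2 and 11.4 in control cultures (0.20 ± 0.14). Vps50, which defines EARP, stayed below background in every control and lay at 0.820, 0.667 and 0.828 in anti-miR-335 cultures against 0.538, 0.595 and 0.612. Taken against the background limit it was at least 1.19-fold higher. The limits differ by array: the control values 0.595 and 0.612 lay over those of anti-miR-335 replicates 2 and 3 (0.563 and 0.492). Vps54, which defines GARP, gave opposite signs on its probes: 1.36, 1.13 and 1.43 against 1.82, 1.79 and 1.35 (-0.33 ± 0.19) on one, and 40.3, 47.2 and 43.2 against 49.1, 34.4 and 33.4 (0.18 ± 0.15) on the other.

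ESCRT genes had 10 of 14 probes positive, a median of 0.16 (between 0.11, without anti-miR-335 replicate 2, and 0.25, without anti-miR-335 replicate 1) and 4 probes without overlap, all higher (background 7.46%, or 9.7% of probes above background on all arrays). Vps4a, the ATPase that disassembles ESCRT-III, lay at 5.06, 5.70 and 4.80 in anti-miR-335 cultures against 4.36, 3.81 and 3.62 in control cultures (0.40 ± 0.12) on one probe. On a second it lay at 11.9, 14.8 and 13.8 against 12.6, 10.1 and 10.7 (0.28 ± 0.12), and another probe was above background on no array. Its paralog Vps4b lay at 1.87, 2.36 and 2.02 against 2.23, 2.35 and 2.39 (-0.16 ± 0.15); the difference between the paralogs was not tested. Of ESCRT-I, Vps28 lay at 58.9, 69.2 and 59.3 against 56.6, 48.7 and 45.3 (0.32 ± 0.12) and Vps37c at 5.22, 6.39 and 7.08 against 6.90, 4.02 and 4.19 (0.34 ± 0.20). Of ESCRT-II, Vps25 lay at 2.67, 2.47 and 2.69 against 2.23, 2.04 and 1.92 (0.34 ± 0.14) on its dimmer probe. Its brighter probe lay at 20.3, 22.7 and 17.8 against 18.1, 18.6 and 18.8 (0.13 ± 0.11), with overlapping groups. Vps36 was at 0.18 ± 0.10, 0.24 ± 0.14 and 0.05 ± 0.10 on its 3 probes.

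The remaining Vps genes had a median of 0.03 (between -0.01, without control replicate 3, and 0.10, without control replicate 1), with 7 of 11 probes positive and 6 of the 11 above background on all arrays. Among the lipid transfer proteins, Vps13b lay at 13.2, 12.1 and 12.96 in anti-miR-335 cultures against 17.5, 9.43 and 8.31 in control cultures (0.20 ± 0.23), control replicate 1 being the highest of all 6. A second Vps13b probe was above background on no array. Vps13c lay near background, at 0.837, 0.624 and 0.915 against 0.347, 0.768 and 0.842 (0.36 ± 0.35). Its second probe lay at 0.700, 0.244 and 0.8885 against 0.177, 0.228 and 0.391, with overlapping groups. That probe was above background on 2 anti-miR-335 and 0 control arrays, so no difference is given for it. Vps45, which regulates SNAREs of the endosome, lay at 5.76, 6.03 and 6.97 against 5.20, 5.32 and 6.51 (0.14 ± 0.13). Vps72 matches the name pattern but encodes a subunit of chromatin remodelling complexes in mammals; it was at 0.03 ± 0.15.

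Repeated probes gave a check within the arrays. Of 26 genes with several probes (56 probes in all), 10 had log2 differences of both signs, and 7 of these 10 had a probe that was not above background on all arrays. The widest gaps with both signs were those of Vps54, Ap3s2 and Vps4a, at 0.51, 0.49 and 0.43, the negative Vps4a probe being the one above background on no array. The probes of Ap3m1, Arf5, Sec61a2 and Sec61b, genes chosen here after their values were seen, lay 0.02, 0.03, 0.03 and 0.06 apart.

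The arrays within each group did not lie together. Taking each probe's log2 intensity minus its mean over the 6 arrays, the median over members was -0.02, 0.11 and 0.08 on anti-miR-335 replicates 1, 2 and 3, and 0.04, -0.12 and -0.10 on control replicates 1, 2 and 3. Control replicate 1 thus lay above anti-miR-335 replicate 1. It was the highest control for 86 of 146 member probes (58.9%, against 45.2% of all gene probes) and lay within the anti-miR-335 range for 64 (43.8% against 41.9%). For COPI it lay at 0.06, against -0.16 and -0.27 on the other controls, and for the retromer class at 0.08 against -0.19 and -0.32.

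**Figure D3:**
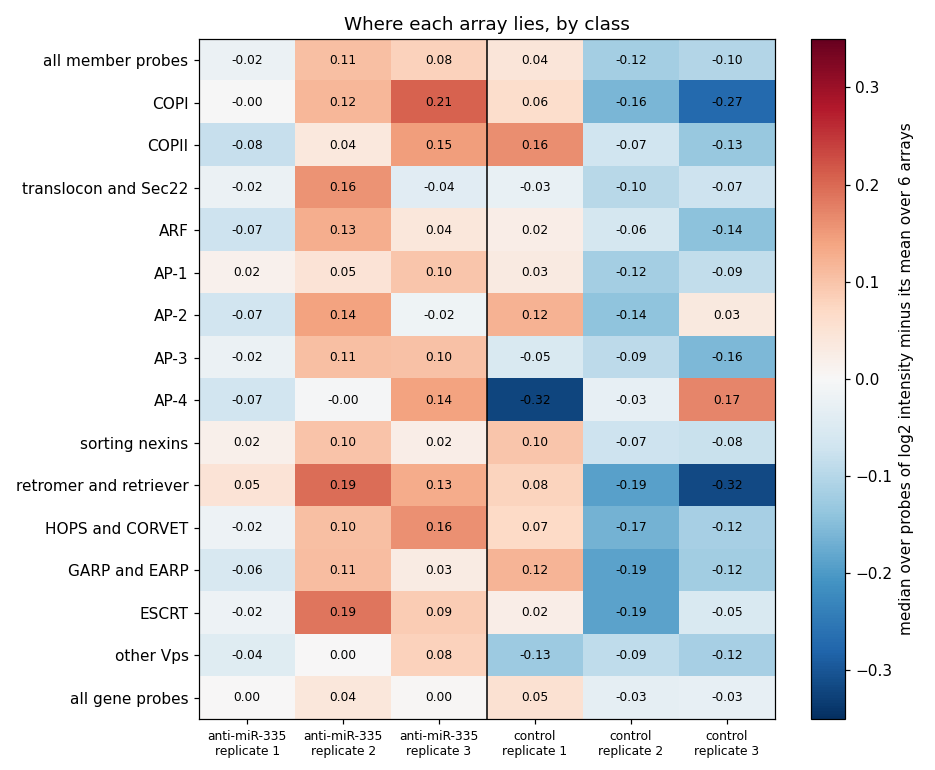
Median over the probes of each class of the log2 intensity minus its mean over 6 arrays, one column per array (anti-miR-335 left of the line, control right) and one row per class. Over all member probes control replicate 1 lies at 0.04, above anti-miR-335 replicate 1 at -0.02, while control replicates 2 and 3 lie at -0.12 and -0.10.

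Leaving out control replicate 1, 111 of 147 member probes were positive with a median of 0.16, against 0.04 over all gene probes and 0.07 over those with a single symbol. Values were then higher without overlap for 62 of 146 complete member probes (background 21.1%) and lower without overlap for 5 (background 14.4%). Then 10 member probes passed an adjusted p of 0.05 by limma, where the background was 3.17%. All 10 were higher (6.803%, against a background of 2.27% in this direction) and 0 lower (background 0.906%). All 10 were above background on every array, where the share was 8.20% against a background of 4.25% (5.51% of single-symbol probes). They were Copg1 (log2 difference 0.50 ± 0.12), Ap1b1 (0.51 ± 0.11), Vps26b (0.62 ± 0.13), Vps35l (0.73 ± 0.13), Snx5 (0.46 ± 0.10), Snx10 (0.46 ± 0.09), Snx14 (0.82 ± 0.16), Vps4a (0.48 ± 0.11), Vps37c (0.59 ± 0.13) and Vps13b (0.53 ± 0.09). These calls come from 3 anti-miR-335 and 2 control arrays that the fit over all arrays shares, so they are no separate support. Leaving out replicate 1 of both groups gave 15 member probes (background 4.57%), and weighting the arrays gave 2, Snx14 and Ap1b1 (background 1.36%). With control replicate 1 included, the groups overlap for the called probes of Copg1, Vps26b, Vps37c and Vps13b, and do not for those of the other 6 genes. The second probes of Snx14, Snx10 and Vps4a had overlapping groups. They did not pass without control replicate 1, with adjusted p of 0.0504, 0.467 and 0.0904 by limma.

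Leaving out control replicate 1 also moved many differences that passed no threshold: of 147 member probes, 26 changed sign and 65 more moved by over 1.5 times. Among the named coat genes, Copa was then at 0.24 ± 0.11, Copb2 at 0.41 ± 0.11, Cope at -0.18 ± 0.14, Sec31a at 0.26 ± 0.11, Sec24a at 0.17 ± 0.10, Sec24c at 0.23 ± 0.09 and Sec24d at 0.03 ± 0.12. Copz2 changed sign and was at -0.03 ± 0.23. The Sec23ip probes were at 0.37 ± 0.12 and -0.06 ± 0.11, and those of Sec16a at 0.02 ± 0.09 and -0.06 ± 0.14. Of the channel, Sec61a1 was at -0.16 ± 0.60, Sec61a2 at 0.21 ± 0.10 and Sec61b, on its brighter probe, at -0.12 ± 0.11, so both Sec61a1 and Sec61b changed sign.

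Of the ARFs, Arf1 was at 0.04 ± 0.11 and Arf4 at 0.30 ± 0.12 without that array. Of the adaptors, Ap1g1 was at 0.38 ± 0.18, Ap1g2 at -0.03 ± 0.39, Ap2m1 at 0.14 ± 0.13, Ap4b1 at 0.19 ± 0.10 and Ap4s1 at -0.01 ± 0.12. Of retromer and the sorting nexins, Vps35 was at 0.45 ± 0.10, Snx2 at 0.28 ± 0.10, Snx6 at -0.30 ± 0.11, Snx13 at 0.09 ± 0.16, Snx18 at -0.13 ± 0.12 and Snx31 at -0.55 ± 0.18, with the second probes of Snx14 at 0.63 ± 0.15 and of Snx10 at 0.29 ± 0.19. Of the tethers and other Vps genes, Vps53 was at 0.35 ± 0.11, the brighter Vps54 probe at 0.36 ± 0.10, Vps8 at 0.33 ± 0.09, Vps13c at -0.04 ± 0.26, Vps45 at 0.08 ± 0.12 and Vps72 at -0.08 ± 0.14. The Vps36 probes at 0.24 and 0.05 moved to 0.36 ± 0.12 and 0.08 ± 0.09. Snx6 and Snx31 thus lay lower, and Snx18 less low, than over all arrays.

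**Figure D4:**
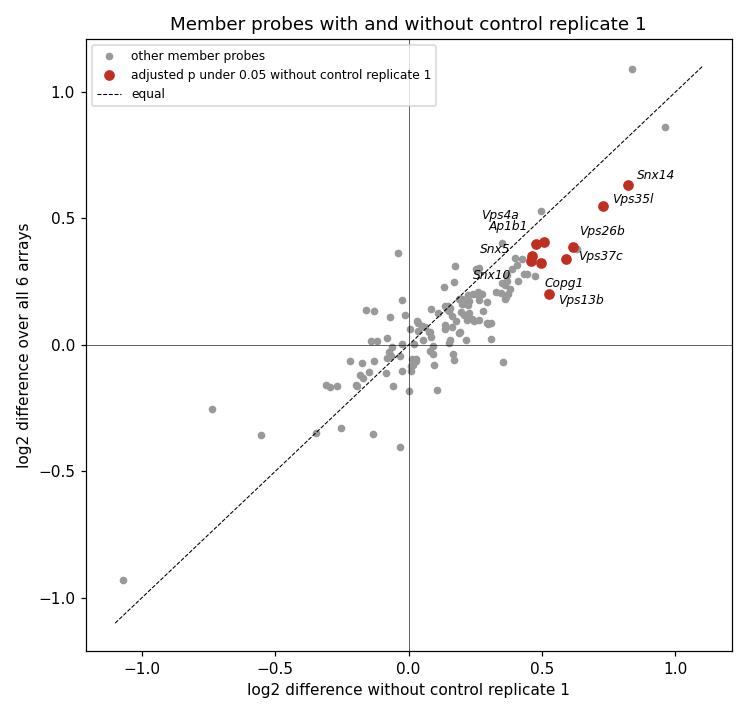
Log2 difference of each member probe (anti-miR-335 minus control) over all 6 arrays (y axis) against that without control replicate 1 (x axis). The 10 red points, named, passed an adjusted p of 0.05 without that array, and all 10 lie below the dashed line of equality.

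Some cell type markers lay the same way as the members. The summed intensity of the 7 astrocyte probes was 184 to 199 in anti-miR-335 cultures, against 162 and 163 in control replicates 2 and 3 and 199 in control replicate 1. Of these probes, 5 were positive and 2 passed as higher without control replicate 1 (background 2.27%). The 10 neuronal probes summed to 24.96 to 35.01, against 20.3 and 20.8 in control replicates 2 and 3 and 32.3 in control replicate 1. Of these, 8 were positive and 2 passed as higher without that array (same background), with Stmn2 and a Tubb3 probe above background on no array. The neural precursor probes summed to 263 to 295, against 246 to 249 in control cultures. Of these, 7 of 10 were positive and 2 passed as higher without control replicate 1. In the other marker lists 0 probes passed without it. The 4 oligodendrocyte lineage probes summed to 6.26 to 32.3, against 5.39 to 31.4, with 1 of 4 positive. Control replicate 1 was the low control at 5.39, replicates 2 and 3 being at 29.5 and 31.4, and Olig1 alone lay at 18.6, 26.8 and 1.61 in anti-miR-335 cultures against 1.93, 24.3 and 25.9. Above background on at least 3 arrays were 6 of the 7 astrocyte, 6 of the 10 neuronal, 4 of the 4 oligodendrocyte lineage, 1 of 5 microglial, 2 of 5 endothelial, 1 of 6 mesenchymal and 0 of 2 erythroid probes. Microglial probes summed to 2.35 to 2.40 against 1.44 to 2.22, endothelial ones to 1.37 to 2.47 against 2.03 to 2.15, mesenchymal ones to 1.70 to 1.99 against 1.67 to 2.26 and erythroid ones to 0.587 to 0.937 against 0.406 to 0.734. The part of cell composition in the members' values was not tested.

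Partners of the same routes outside the name pattern had median log2 differences from -0.01 to 0.13 over 8 lists, and 0 of their probes passed an adjusted p of 0.05 over all arrays (limma). COPI partners had 13 of 22 probes positive and a median of 0.08. The 2 of smallest p lay in opposite directions: Kdelr3, a receptor that returns resident proteins to the endoplasmic reticulum, lay at 8.47, 8.96 and 8.60 in anti-miR-335 cultures against 10.3, 10.7 and 11.6 in control cultures (-0.32 ± 0.10; -0.08 ± 0.13 on a second probe), and Arfgap2, a GTPase activator of the coatomer cycle, at 6.62, 8.15 and 7.72 against 6.61, 5.37 and 4.11 (0.50 ± 0.17). COPII partners had 14 of 24 positive and a median of 0.09. Scfd1, a SNARE regulator, was at 0.34 ± 0.11 and Stx18, an ER SNARE, at 0.33 ± 0.13.

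Clathrin and its accessory genes had 22 of 29 probes positive and a median of 0.13, with the arrestins Arrb1 (0.67 ± 0.16 on 1 of 3 probes and 0.41 ± 0.28 on another, the remaining one being above background on no array) and Arrb2 (0.38 ± 0.12) of smallest p. Genes of protein translocation outside the pattern had 18 of 28 positive (median 0.09). Rpn2, of the oligosaccharyltransferase, lay at 17.7, 19.0 and 19.7 against 15.1, 12.6 and 10.8 (0.56 ± 0.13), and Tram2 at 3.33, 4.103 and 4.04 against 4.97, 4.69 and 4.93 (-0.35 ± 0.12). Other Tram2 probes gave -0.22 ± 0.11 and -0.08 ± 0.21. Unfolded protein response genes had 10 of 20 positive and a median of -0.01, with Sdf2l1 at -0.46 ± 0.17 and the chaperone calreticulin, Calr, at -0.21 ± 0.10.

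ESCRT partners had 13 of 18 probes positive and a median of 0.10, Tsg101 of ESCRT-I lying at 0.37 ± 0.12 and Stam of ESCRT-0 at 0.26 ± 0.09. Retromer partners and cargo had 16 of 22 positive (median 0.13), the sorting receptor gene Sorl1 lying at 0.39 ± 0.13 and Igf2r, the mannose 6-phosphate receptor, at -0.29 ± 0.13. ARF relatives and effectors had 12 of 17 positive (median 0.11), with Arfip2 at -0.28 ± 0.10 and the ARF exchange factor Cyth3 at 0.40 ± 0.15. Without control replicate 1, 1 to 3 probes of each of these 8 lists passed as higher (background 2.27%), and 1 as lower (background 0.906%), in the translocation list; Igf2r was then at -0.14.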

How the data were processed

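Biotin-labelled cRNA from 2 µg of total RNA was hybridised to single-colour CodeLink mouse arrays (18 h), per the labels. The deposited intensities are relative to each array's median, a scaling done by the authors per the labels; CodeLink Expression Analysis 4.1.0.29054 is the software in the file headers. Scanner output was used for replicate 1 of each group, where the deposited intensity equalled the scanner's normalized value within 0.0001 (36032 and 35976 rows compared) and local background was already subtracted. Gene names came from the platform annotation and were looked up in the RefSeq table of GRCm38.p6, which changed 0 symbols.

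A floor of 0.163, the 5th percentile of positive intensities, was set before log2. The comparison used limma 3.58.1 under R 4.3.3 (lmFit and eBayes with an intensity trend, two-sided, Benjamini-Hochberg adjustment over 34847 gene probes with at least 2 values per group). Errors are SEs of the log2 difference, n = 3 per group, and the number of arrays limits the precision. The script was tested on simulated data. For a probe below background throughout a group, the fold is a bound: the dim group takes, per array, its own intensity or the dimmest one over the limit, whichever is higher.

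Members, classes, lists and motifs were chosen with earlier results of these data known. Probes were named by rule: a core list, the 3 of smallest p in each class among those above background on at least 3 arrays, up to 10 per direction without overlap, those passing with or without control replicate 1, genes with probes of opposite sign, and from each outside list the 2 of smallest p. Some other members were added with their values seen, and not every complex is named in full. Same-numbered arrays deviated from their group means with correlations of -0.23, 0.04 and -0.26 over 17843 probes, so the numbers were not taken as pairs. The alternatives were quantile normalization, other floors, dim probes left out, other variance models, array weights, a replicate block, arrays left out, good flags, 1 value per gene and scanner intensities.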

Additional observations from a re-analysis of the deposited data

How the results depend on the processing

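The count of 0 probes past an adjusted p of 0.05 over all gene probes became 474 with array weights, 3 when the trend was robust and 1 under quantile normalization; for the members it stayed at 0 under the settings that kept all arrays, except for 2 with array weights. Leaving out 1 array gave 0 to 1100 probes and 0 to 10 members, the upper ends without control replicate 1; leaving out the replicate 1 pair gave 1571 and 15. The replicate block gave 0 in both cases and, by construction, the same median of 0.104; none of the 6 arrays correlated best with its own number. The members' median, 0.104, lay between 0.0600 (quantile normalization) and 0.166 (array weights) over the settings that kept all arrays, between 0.0825 and 0.162 with 1 array left out, and at 0.184 without the replicate 1 pair. Without that pair the class medians moved to 0.367 (COPI), 0.305 (AP-1), 0.334 (retromer), 0.252 (HOPS and CORVET) and 0.0958 (other Vps genes). AP-1 was at 0.168 with dim probes left out and with good flags, and between 0.0431 and 0.260 with 1 array left out. Other Vps genes were at 0.0771 with array weights, and between -0.00983 and 0.105 with 1 array left out. The translocon class lay between -2.2e-05 and 0.116 with 1 array left out. The cause was not tested. The replicate block and both trend settings cannot change a value, by construction, and were not counted. Of 888 values of named probes over the other settings, 835 kept their sign and 824 moved by less than 1 moderated SD. These counts include 61 values with dim probes left out and 59 with good flags. Both settings only drop probes, so those values were unchanged by construction. Changing the floor can move only probes with intensities under a floor. The scanner intensities, which cover only the replicate 1 pair, kept the sign of 42 of 64. Dim probes set what depth limits: 11 measured member probes were above background on no array.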
